A study of Mus musculus with 10 samples.

Results

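The genes described here are 6 members of the unfolded protein response and the integrated stress response: the transcription factors Atf4, Atf3, Ddit3 (CHOP) and Xbp1, the oxidase gene Ero1a and the chaperone gene Hspa5 (BiP). They were chosen by name, as every probe set whose platform gene symbol is 1 of the 6, and this gave 6 genes, of 8252 with a probe set of their own symbol, and 9 probe sets of 12488. The 6 names were picked with earlier results of these data known. A filter on dim probe sets kept 8 of these 9 probe sets and 7453 of all probe sets. The samples were 10 arrays of mouse hepatocyte total RNA: normoxic untreated cells (2 arrays), normoxic adeno-treated cells (2), hypoxic adeno-treated wild-type cells (3) and hypoxic HIF-1alpha null cells (3). HIF-1alpha is stabilised when oxygen is low and then acts as a transcription factor with its partner ARNT. Mouse age and strain, the genotype of the normoxic cells, the adeno vector, the means of HIF-1alpha removal, any adeno treatment of the null cells, and the oxygen level and duration were not given in the sources used here. No normoxic null group was analysed here, and nothing states that the arrays of a group came from separate cultures, so that p-values measure only the spread between these arrays.

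The unfolded protein response is set off when unfolded proteins collect in the endoplasmic reticulum (ER). The sensor kinase PERK phosphorylates the translation factor eIF2alpha, as do other kinases that sense lack of amino acids, heme deficiency or viral RNA, and this common step is called the integrated stress response. It lowers protein synthesis in general but raises translation of ATF4, which turns on Atf3, Ddit3 and genes of amino acid supply. The other sensors, IRE1 and ATF6, act through spliced Xbp1 mRNA and cleaved ATF6 and raise chaperones such as Hspa5. An mRNA array of this kind reads the amount of Xbp1 mRNA and not its splicing, and reads Atf4 mRNA and not its translation. Hepatocytes secrete most plasma proteins and therefore carry a large ER.

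The 250 bases upstream of the RefSeq gene start (build GRCm38.p6) are shown for 4 members because their hypoxic values differ: Atf3, Ddit3 and Ero1a were called higher in hypoxic wild-type cells and Hspa5 was not. All 6 members matched an entry of the RefSeq promoter table. Capitals mark matches, on either strand, to TTGCATCA (the composite element bound by ATF4 with C/EBP factors), ACGTCA (the core of ATF and CRE sites), the ER stress element (CCAAT and CCACG with a fixed gap between them) and ACGTG or GCGTG (the core of HIF sites). Each sequence reads 5′ to 3′ along the gene's own strand.
Atf3, chr1:191183334-191183583, minus strand: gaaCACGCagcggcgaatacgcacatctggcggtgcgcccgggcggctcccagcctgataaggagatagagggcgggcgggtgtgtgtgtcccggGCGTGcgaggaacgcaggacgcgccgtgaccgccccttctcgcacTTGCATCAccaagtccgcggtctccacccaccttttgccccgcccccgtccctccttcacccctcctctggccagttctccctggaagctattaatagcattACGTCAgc
Ddit3, chr10:127290543-127290792, plus strand: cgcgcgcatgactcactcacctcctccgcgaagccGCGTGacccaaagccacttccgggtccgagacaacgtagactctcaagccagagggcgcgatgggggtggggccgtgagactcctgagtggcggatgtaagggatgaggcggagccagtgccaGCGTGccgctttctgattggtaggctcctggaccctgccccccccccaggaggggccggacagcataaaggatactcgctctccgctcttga
Ero1a, chr14:45318573-45318822, minus strand: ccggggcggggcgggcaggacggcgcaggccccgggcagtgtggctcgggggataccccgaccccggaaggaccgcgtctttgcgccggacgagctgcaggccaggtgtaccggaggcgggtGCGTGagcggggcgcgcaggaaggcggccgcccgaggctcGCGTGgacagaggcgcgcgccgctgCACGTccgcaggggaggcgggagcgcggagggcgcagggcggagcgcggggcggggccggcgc
Hspa5, chr2:34771840-34772089, plus strand: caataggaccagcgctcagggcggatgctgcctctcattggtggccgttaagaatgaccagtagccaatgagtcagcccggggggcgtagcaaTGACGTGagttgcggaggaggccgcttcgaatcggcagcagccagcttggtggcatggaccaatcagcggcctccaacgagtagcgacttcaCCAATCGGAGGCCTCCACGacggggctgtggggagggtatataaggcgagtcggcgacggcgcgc
The window of Atf3 held TTGCATCA, which 0.791% of 32851 such windows of the table hold, and ACGTCA, which 6.47% hold. That of Hspa5 held the ER stress element, found in 0.113% of windows, and an ACGTCA on the opposite strand that overlaps an ACGTG. Of the 6 members' windows, 4 held GCGTG (Atf3, Atf4, Ddit3 and Ero1a), against 28.2% of all windows, and 2 held ACGTG (Ero1a and Hspa5), against 16.6%. Matches are descriptions of letters, not measured binding.

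Values are scaled intensities and their errors are SDs with n arrays. Tests are limma fits over all 7453 probe sets, on log2 of the intensity plus 4.7, with Benjamini-Hochberg adjusted p under 0.05 as the threshold for a call. The 16 hepatocyte markers on the array, of 20 listed, summed to 44317 to 68237 on every array, in all 4 groups. By limma none was called between groups. With a block on the sample numbers, 4 of 16 were lower in hypoxic wild type and 7 in null than in adeno-treated cells. Of all 7453 probe sets, 55 and 211 were lower in these comparisons. Between null and wild type, 1 marker was lower in null, as were 9 of all probe sets. The 18S ribosomal control probe sets read 12.33 and 12.18 (log2) on the hypoxic number 3 arrays and 5.98 to 10.25 on the others, with the 10.25 on normoxic adeno-treated number 2. The 16 stellate cell and fibroblast markers on the array, of 18, summed to 6346 and 5800 on those number 3 arrays, 19253 and 17997 on the hypoxic number 1 arrays, 14026 and 12173 on number 2 and 9895 to 11796 on the normoxic arrays. In such bulk RNA, fewer cells of a type and less RNA per cell cannot be told apart. Summed levels of the other marker lists in each hypoxic group overlapped those of the normoxic arrays: 14 macrophage markers (876 to 1690), 11 endothelial (573 to 1463), 7 biliary (11706 to 19064) and 9 lymphocyte (221 to 540). Like the stellate sum, the macrophage, endothelial and biliary sums fell from number 1 to number 3 in both hypoxic groups. The endothelial sums were 1463, 869 and 611 in wild type and 1281, 856 and 573 in null. The hepatocyte sum rose in that order, from 44317 to 64269 in wild type and from 46511 to 57258 in null. The lymphocyte sums did not fall in this order. Of 6 biliary markers tested, 1 (Cldn4) was called higher in each hypoxic group than in adeno-treated cells, and Krt19 joined it with the block. Of 8 macrophage markers tested, 1 (Cd68), and of 15 stellate ones 1 in null (Postn), were higher with the block alone. Over all probe sets, 0.322% were called higher in wild type and 0.349% in null, and 1.49% and 2.95% with the block. No marker on the array was at 0 on all arrays. The part of these marker differences in the members' changes was not tested.

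In hypoxic wild-type cells against normoxic adeno-treated cells, Atf3, Ddit3 and Ero1a rose, Atf4 was higher by a smaller step that passed only in some fits, and Xbp1 and Hspa5 did not pass. Of the 6 genes, 3 were called higher, on 4 probe sets, where 0.322% of all probe sets were called higher. The median log2 change of the 6 was 1.32, against -0.02 over all probe sets tested. The 6 were chosen with earlier results of these data known, so these figures are descriptions and not a test of the set. The comparison asks how these cells respond to low oxygen. The plot of intensities by array shows each value.

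**Figure D1:**
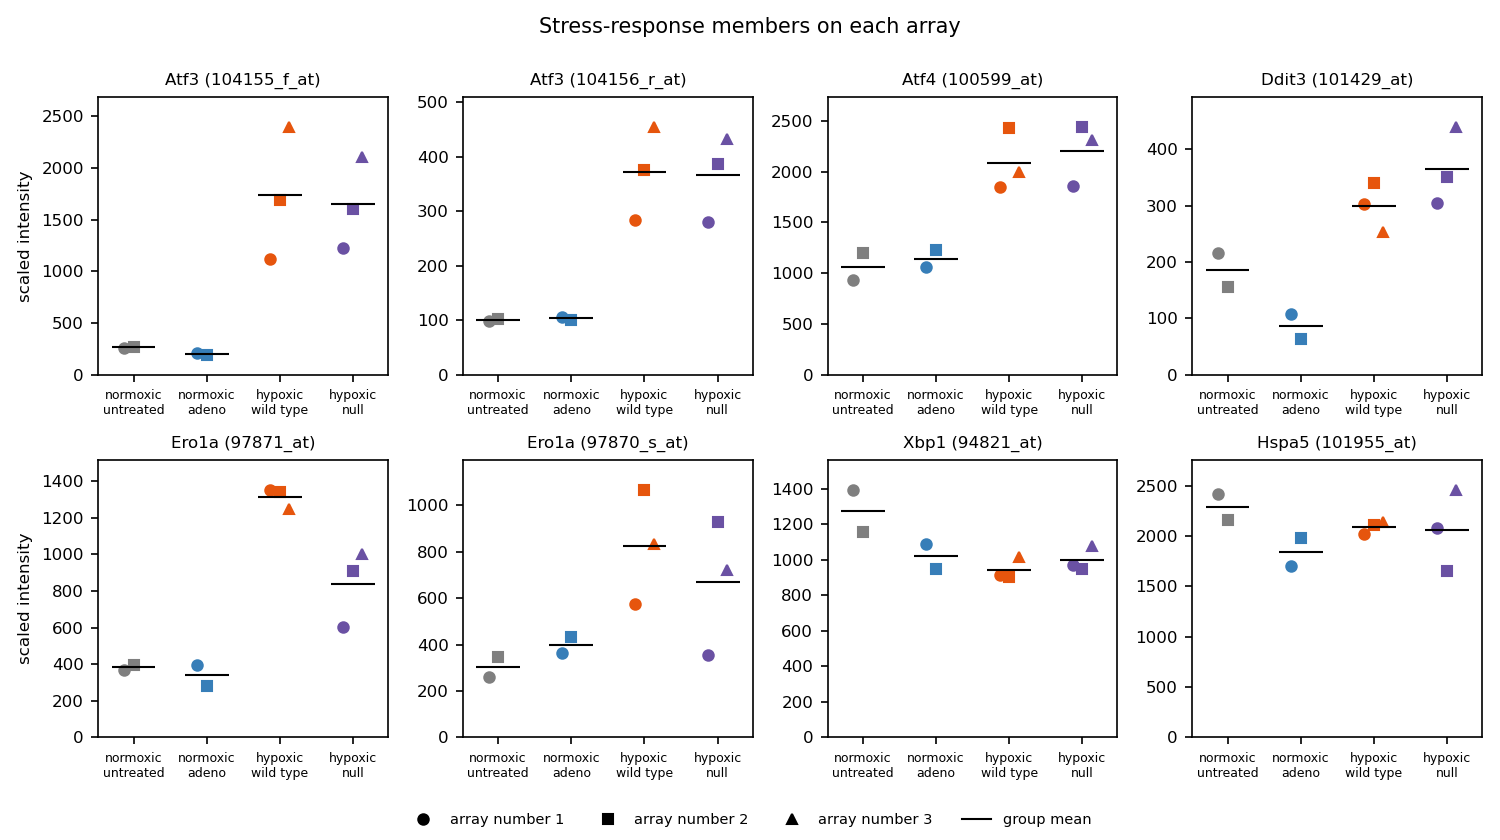
Scaled intensity (linear axis from 0) of the 8 tested probe sets on each of the 10 arrays, by group; marker shape gives the array number and the bar the group mean. For Atf3 and Atf4 every hypoxic array lies above every normoxic array, while the ranges of the hypoxic and the normoxic arrays overlap for Hspa5 and Xbp1.

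Atf4 is the factor whose translation the eIF2alpha step favours. It read 933.7 and 1197.5 on the normoxic untreated arrays, 1061.1 and 1226.5 on the adeno-treated ones, 1846.8, 2426.4 and 1995.2 on the hypoxic wild-type arrays and 1861.5, 2438.9 and 2310.1 on the null ones. All 6 hypoxic arrays lay above all 4 normoxic ones. The share of probe sets so placed, as Atf3, Ddit3 and Ero1a 97871_at below also were, was not counted. For the easier placing against the adeno-treated arrays alone, 11.6% of probe sets tested had all hypoxic wild-type arrays above them. For null arrays the share was 13.8%. The wild-type change was 1.82-fold (log2 0.86, SE 0.19, 95% interval 0.43 to 1.29) and did not pass (limma adjusted p = 0.179). With the sample number as a replicate block the change was the same in size (0.86, SE 0.12) and passed (limma adjusted p = 0.00584), as it did against all 4 normoxic arrays (0.92, limma adjusted p = 0.0468).

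Atf3, a stress-induced factor of the same bZIP family, had the largest change of the members and the third-ranked rise of all 7453 probe sets. Probe set 104155_f_at read 263.8 and 267.7 untreated, 213.0 and 192.8 adeno-treated, 1120.1, 1693.8 and 2398.0 in hypoxic wild type and 1231.0, 1608.0 and 2105.9 in hypoxic null. Hypoxic and normoxic arrays did not overlap, and the number 1 array was the lowest and the number 3 array the highest in both hypoxic groups. The wild-type rise was 8.01-fold (log2 SE 0.31, 95% interval 2.31 to 3.69, limma adjusted p = 0.00359), and without the number 3 arrays it was 2.74 on the log2 scale (adjusted p = 0.00319). The part of the 18S and marker sum differences by number in this spread was not tested.

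A second Atf3 probe set, 104156_r_at, gave a smaller rise: 98.9 and 102.1 untreated, 106.4 and 100.6 adeno-treated, 284.1, 375.6 and 454.9 in hypoxic wild type. That is 3.42-fold (log2 1.77, SE 0.24, limma adjusted p = 0.0174). The remaining probe set, 161645_r_at, read 2.8 to 4.1 on all 10 arrays, below the offset, and was not tested. Names ending in f or r mark probe sets that may hybridise with related transcripts or that were chosen under relaxed rules. The sizes of the 8.01-fold and 3.42-fold rises therefore belong to the probe sets and not to the gene alone.

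Ddit3 encodes CHOP, a bZIP factor linked to cell death under prolonged ER stress. It read 216.6 and 156.5 on the untreated arrays, 108.3 and 63.2 on the adeno-treated ones, 303.4, 341.1 and 253.0 in hypoxic wild type and 304.9, 350.8 and 439.7 in hypoxic null. The hypoxic arrays lay above all normoxic ones, and the adeno-treated arrays lay below the untreated ones. Against the adeno-treated cells Ddit3 rose 3.44-fold in wild type (log2 1.78, SE 0.27, limma adjusted p = 0.0274). Against all 4 normoxic arrays the change was 1.23 on the log2 scale and missed the threshold (limma adjusted p = 0.0532), and with those arrays as 1 group the adjusted p was 0.184. The size of the Ddit3 rise thus depended on which normoxic cells stood as control.

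Ero1a encodes the oxidase that regenerates protein disulfide isomerase during folding, and is known as a target of HIF as well as of CHOP. Probe set 97871_at read 368.6 and 395.6 untreated, 394.5 and 282.5 adeno-treated, 1353.6, 1339.7 and 1249.3 in hypoxic wild type and 603.5, 907.1 and 1001.3 in hypoxic null. The wild-type arrays were tightly placed (1314 ± 56.6, SD, n = 3) and rose 3.89-fold over the adeno-treated ones (log2 1.96, SE 0.23, limma adjusted p = 0.00890). The null arrays lay between the wild-type and the normoxic arrays, overlapping neither, a placing whose share over all probe sets was not counted.

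The other Ero1a probe set, 97870_s_at, read 262.1 and 345.5 untreated, 363.7 and 432.9 adeno-treated, 572.7, 1067.2 and 833.0 in wild type and 355.0, 929.7 and 720.7 in null. Its wild-type change, with a 95% interval of 0.14 to 1.86 on the log2 scale (SE 0.39), did not pass (limma adjusted p = 0.536; 0.0698 with the replicate block). Its number 1 arrays were the lowest in both hypoxic groups, whereas on 97871_at the wild-type number 1 array was the highest. The probe sets of Ero1a thus had the same direction in wild type but different spread.

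Xbp1, the factor downstream of IRE1, read 1395.2 and 1156.0 untreated, 1091.3 and 947.6 adeno-treated, 912.8, 903.0 and 1016.9 in hypoxic wild type and 972.0, 949.4 and 1080.5 in null. The untreated arrays were the highest and the other groups overlapped. Its wild-type change was -0.11 on the log2 scale (95% interval -0.47 to 0.25, limma adjusted p = 0.921). Hspa5, the main ER chaperone, read 2416.2 and 2154.3 untreated, 1699.3 and 1976.7 adeno-treated, 2021.0, 2111.2 and 2135.9 in hypoxic wild type and 2076.7, 1654.0 and 2459.7 in null. Its wild-type change was 0.19 (95% interval -0.22 to 0.59, limma adjusted p = 0.853), and the wild-type arrays lay above both adeno-treated and below both untreated arrays. Of all probe sets tested, 11.6% had the wild-type arrays above both adeno-treated ones. The intervals of Xbp1 and Hspa5 both end below 1 on the log2 scale.

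These calls depended on few arrays. Without normoxic adeno-treated number 2 the 4 called probe sets became 0, without number 1 they became 2 (Atf3 and Ero1a), and without hypoxic wild-type number 2 1 of Atf3 was left. Differences between wild type and adeno-treated cells taken within the same number were 2.37 and 3.10 (numbers 1 and 2) for Atf3 104155_f_at, 1.45 and 2.35 for Ddit3, 1.77 and 2.23 for Ero1a 97871_at and 0.80 and 0.98 for Atf4. They were positive in each pair, whereas Hspa5 had 0.25 and 0.09 and Xbp1 -0.26 and -0.07.

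**Figure D2:**
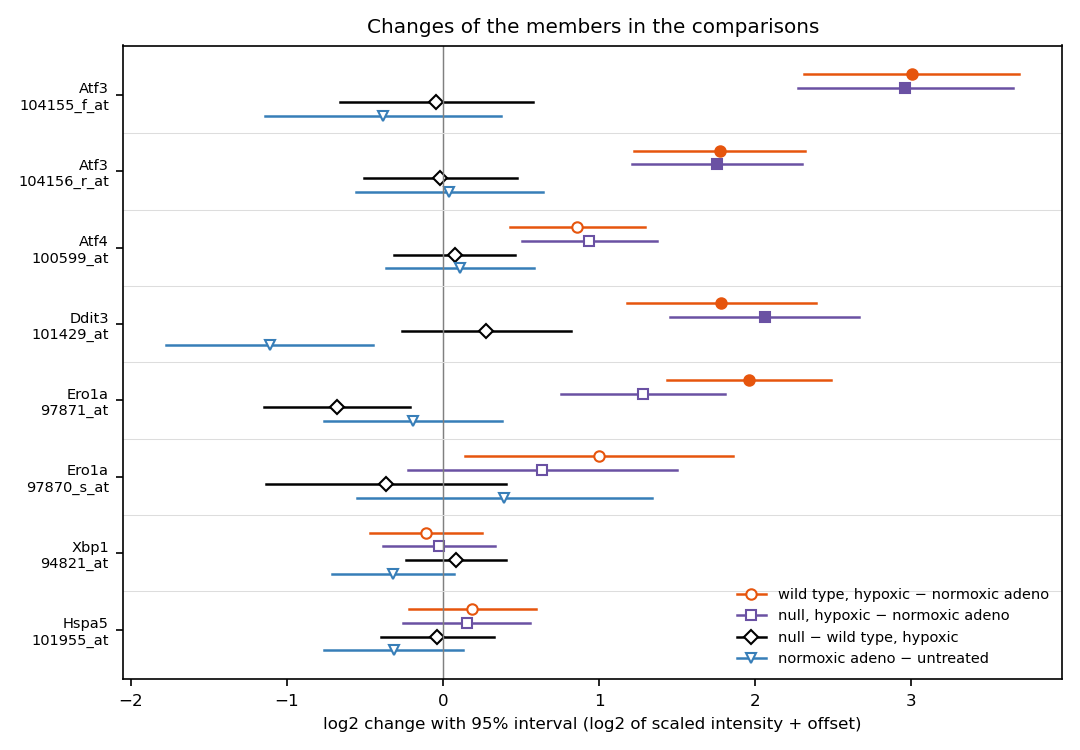
Log2 change (x axis, log2 of scaled intensity plus offset) of the 8 probe sets in the 4 comparisons, with 95% intervals from limma; filled symbols passed the adjusted threshold. Atf3 and Ddit3 were called in both hypoxic groups, Ero1a 97871_at was called in wild type, and no symbol is filled for null minus wild type.

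Null cells were next set against wild-type cells, both hypoxic, which addresses the part of HIF-1alpha in these changes; any difference in adeno treatment enters as well. Atf3, Atf4, Ddit3, Xbp1 and Hspa5 differed by 0.28 or less on the log2 scale, and Ero1a was lower in null cells without passing. Atf3 differed by -0.04 on 104155_f_at (95% interval -0.66 to 0.57) and by -0.02 on 104156_r_at (-0.50 to 0.47). Atf4 differed by 0.08 (-0.31 to 0.46), Ddit3 by 0.28 (-0.26 to 0.82), Xbp1 by 0.08 (-0.24 to 0.40) and Hspa5 by -0.04 (-0.40 to 0.33). The adjusted p of each was 0.999 in limma. These intervals leave room for modest differences, so the values do not show equal levels.

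Ero1a read 837 ± 208 (SD, n = 3) in null against 1314 ± 56.6 (SD, n = 3) in wild type on 97871_at, 0.625-fold (log2 -0.68, SE 0.21, 95% interval -1.15 to -0.21). All null arrays lay below all wild-type ones, a placing that 2.74% of probe sets tested had. The difference did not pass (limma adjusted p = 0.935; 0.255 with the replicate block). On 97870_s_at it was -0.36 (SE 0.35, limma adjusted p = 0.999), and the groups overlapped. Between arrays of the same number, null minus wild type was -1.16, -0.56 and -0.32 on 97871_at and -0.68, -0.20 and -0.21 on 97870_s_at. Every pair was negative, with number 1 the farthest from 0.

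Ddit3 differed in the other direction, and mainly on 1 pair: null minus wild type was 0.01, 0.04 and 0.79 for numbers 1, 2 and 3. Without the number 3 arrays the Ddit3 difference was 0.02. In limma 0 of 7453 probe sets were called in this comparison (percent called 0), with 252 at an unadjusted p under 0.05 and 10 (0.134%) called with the replicate block, none of them a member.

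**Figure D3:**
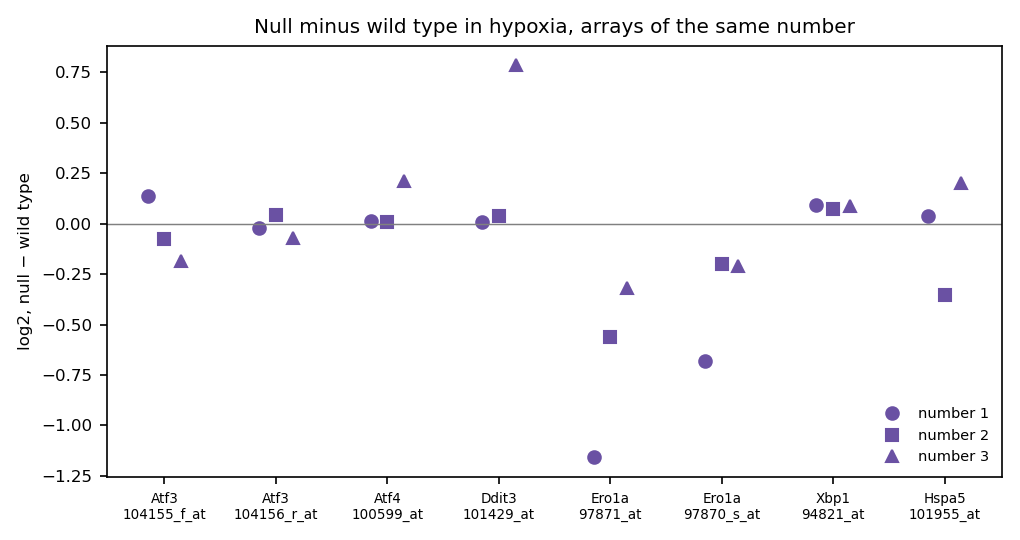
Log2 difference of hypoxic null minus hypoxic wild type (y axis) between arrays of the same number, for the 8 probe sets. Both Ero1a probe sets are below 0 in all 3 pairs, and the Ddit3 value of 0.79 comes from number 3.

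Against the normoxic adeno-treated cells, the same control arrays as above, hypoxic null cells also had higher Atf3 and Ddit3. Atf3 was 7.78-fold higher on 104155_f_at (log2 2.96, SE 0.31, limma adjusted p = 0.00472) and 3.38-fold on 104156_r_at (adjusted p = 0.0170). Ddit3 was 4.18-fold higher (log2 2.06, SE 0.27, limma adjusted p = 0.0147). Ero1a 97871_at was 2.43-fold higher and just missed the threshold (log2 1.28, SE 0.23, limma adjusted p = 0.0597); with the replicate block it passed (1.23, adjusted p = 0.0155). Atf4 was 1.91-fold higher (log2 0.94, limma adjusted p = 0.110) and passed with the block (0.93, adjusted p = 0.00304). Xbp1 was at -0.03 and Hspa5 at 0.15.

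This gave 3 member probe sets called in null cells, where 0.349% of all probe sets were called higher. With the block 5 were called in each hypoxic group, against 1.49% of probe sets called higher in wild type and 2.95% in null. The 3 became 0 without normoxic adeno-treated number 2. They became 1 without adeno-treated number 1 (Ddit3) and 1 without null number 2 or number 3 (Atf3).

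The adeno treatment of normoxic cells changed no member past the threshold. The largest difference was that of Ddit3, 85.8 ± 31.9 (SD, n = 2) adeno-treated against 187 ± 42.5 (SD, n = 2) untreated, 0.464-fold (log2 -1.11, SE 0.30, limma adjusted p = 0.498; 0.0882 with the replicate block). It was lower in both same-number pairs, at -0.97 and -1.25. Xbp1 (-0.32), Hspa5 (-0.32) and Atf3 104155_f_at (-0.38) were also lower on both adeno-treated arrays than on both untreated ones, a placing that 24.3% of probe sets tested had. Atf3 104156_r_at was at 0.04, Atf4 at 0.11, and the Ero1a probe sets at -0.19 and 0.39. In limma 0 probe sets were called (percent called 0), with 620 at an unadjusted p under 0.05 and 19 (0.255%) called with the block.

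Around the members, genes of the same responses were described by role, with the brightest probe set for each gene. Of 17 tested genes of stress sensing and eIF2alpha control, 0 were called in hypoxic wild type by limma, with or without the block. At an unadjusted p under 0.05, 3 were higher and 1 lower, and their median log2 change was -0.11. Ppp1r15a (GADD34), the phosphatase subunit that reverses eIF2alpha phosphorylation, read 339.4, 325.1 and 468.4 in hypoxic wild type against 215.3 and 226.1 adeno-treated (log2 0.74, limma adjusted p = 0.465). The hypoxic arrays lay above the adeno-treated ones, a placing that 11.6% of probe sets tested had in wild type and 13.8% in null. Eif2b4, a subunit of the exchange factor that eIF2alpha phosphorylation inhibits, was at -0.49 (limma adjusted p = 0.439).

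Among 24 partner bZIP and feedback factors, Fos rose and no other was called without the block. Fos, which forms AP-1, read 212.9, 329.8 and 261.2 in hypoxic wild type and 112.1, 187.3 and 228.5 in null, against 48.0 and 41.1 adeno-treated (log2 2.45, limma adjusted p = 0.0111, and 1.82, 0.0420 in null). Cebpa, a liver-enriched C/EBP factor, fell in wild type only with the block (-0.88, limma adjusted p = 0.00781, and -1.03 and 0.125 without it). In null cells Cebpa likewise fell only with the block (-0.79, limma adjusted p = 0.00912, and 0.136 without it). Cebpg, a dimer partner of ATF4, was at 0.82 in wild type (limma adjusted p = 0.447). It passed with the block in null cells (0.85, limma adjusted p = 0.0280, and 0.278 without it). Atf5, a relative of ATF4, fell in null cells with the block (-1.23, limma adjusted p = 0.0117, and 0.465 without it). Null Cebpg read 169.7, 270.1 and 292.7 against 150.4 and 180.1 untreated. Null Atf5 read 689.5, 489.4 and 1162.0 against 739.0 and 1148.9 untreated, so both overlapped. Against all 4 normoxic arrays, without the block, their limma adjusted p was 0.190 and 0.424. The dimmer of the Junb probe sets, for another AP-1 subunit, passed with the block in wild type (1.31, limma adjusted p = 0.0431, and 0.566 without it). It passed in null too (1.25, limma adjusted p = 0.0323, and 0.484 without the block). The brighter Junb probe set passed in neither with the block (0.56, limma adjusted p = 0.199 in wild type, and 0.79, 0.0648 in null). At an unadjusted p under 0.05, 4 of the 24 were higher and 2 lower, and the median was 0.20.

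Of 38 tested genes known as targets of ATF4 or CHOP, 1 was called higher in hypoxic wild type and 0 lower by limma, where 0.322% of all probe sets were called higher. With the block 5 were higher and 0 lower, where 1.49% of all were higher. At an unadjusted p under 0.05, 6 were higher and 1 lower, where 591 of 7453 probe sets passed in either direction. The median was 0.08, against -0.02 over all probe sets, and 20 of the 38 were positive. The called gene was Gadd45a, of growth arrest after damage, at 639.2, 796.7 and 1209.4 in wild type and 701.2, 1018.8 and 1399.1 in null against 186.6 and 186.9 adeno-treated (log2 2.16, limma adjusted p = 0.0206, and 2.39, 0.0147 in null). Mthfd2, of mitochondrial folate metabolism, was at 0.82 (limma adjusted p = 0.277). With the block Eif4ebp1, an inhibitor of translation start (0.86, limma adjusted p = 0.0203; 0.101 without it), Hmox1, which degrades heme (0.68, 0.0240; 0.538), and Vegfa, the vessel growth factor (2.21, 0.00505; 0.123), rose too. Hmox1 and Vegfa are HIF targets as well. The remaining gene called with the block was Slc7a5, an amino acid transporter, named after its value was seen. In null cells 6 of the 38 were higher and 1 lower with the block, where 220 of 7453 probe sets were higher and 211 lower. Hmox1 (0.98, limma adjusted p = 0.00287, and 0.268 without the block) and Vegfa (2.09, 0.00514 and 0.122) passed there too. So did Mthfd2 (0.81, limma adjusted p = 0.0410, and 0.239 without the block) and Slc3a2, of amino acid transport (0.49, 0.0420 and 0.413).

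Of 31 tested ER chaperones and disulfide enzymes other than the members, 0 were called in hypoxic wild type by limma. At an unadjusted p under 0.05, 2 were higher and 0 lower, where 591 of 7453 probe sets passed in either direction. With the block 1 was higher, where 1.49% of all probe sets were, and the median was 0.07. The one called with the block was Ppic, a prolyl isomerase (0.95, limma adjusted p = 0.0382; 0.58 and 0.837 without it). It read 625.0, 269.7 and 204.5 in wild type and 601.3, 422.9 and 214.9 in null (numbers 1, 2 and 3). The normoxic values were 253.7 and 185.2 adeno-treated and 430.7 and 299.2 untreated. Values of both hypoxic groups overlapped the adeno-treated ones, and wild-type numbers 2 and 3 lay below both untreated arrays. Against all normoxic arrays, without the block, the wild-type change was 0.22 (limma adjusted p = 0.920). Ppic was highest on number 1 and lowest on number 3 in both hypoxic groups, as the stellate marker sum was. The part of that sum in Ppic was not tested. Dnajb9 (ERdj4), a co-chaperone of BiP, had 2 probe sets tested. Its brighter one read 288.3, 396.8 and 461.7 in wild type, 187.1 and 124.2 adeno-treated and 320.3 and 315.2 untreated. There the change was 1.27 (limma adjusted p = 0.396), and wild-type values overlapped the untreated ones. Its dimmer one read 62.4, 294.7 and 264.3 in wild type, 110.6 and 100.8 adeno-treated and 75.7 and 44.0 untreated (0.67, limma adjusted p = 0.848). Adeno-treated minus untreated was -1.04 on the brighter and 0.82 on the dimmer. Canx (calnexin), a chaperone of glycoproteins, read 244.2, 263.0 and 172.7 in wild type against 165.9 and 127.2 adeno-treated and 200.2 and 231.2 untreated (log2 0.60, limma adjusted p = 0.601; unadjusted 0.0436). Its wild-type arrays lay above the adeno-treated ones, as for 11.6% of probe sets tested, and overlapped the untreated ones. Lman2, a lectin of the secretory pathway, was at 0.53 on its dimmer probe set (limma adjusted p = 0.545) and at -0.02 on its brighter one.

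Of 42 genes of ER-associated degradation and translocation, 0 were called in hypoxic wild type by limma with or without the block, with 1 higher and 1 lower at an unadjusted p under 0.05 and a median of -0.03. Sec11a, of the signal peptidase, was at 0.47 and Ostc, of the glycosylation complex, at -0.55, and neither passed (limma adjusted p = 0.622 and 0.425). Wfs1, an ER membrane protein that regulates ATF6 turnover, passed in null cells only with the block (1.44, limma adjusted p = 0.0206; 1.01 and 0.628 without it). It read 109.0, 67.6 and 21.3 in wild type and 133.5, 91.3 and 61.7 in null (numbers 1, 2 and 3), against 59.8 and 30.6 adeno-treated and 119.3 and 64.0 untreated. Its null values overlapped the untreated ones and were highest on number 1 and lowest on number 3. The stellate, macrophage, endothelial and biliary marker sums had the same order, and their part was not tested here either.

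The list of 24 known HIF targets, which leaves out Ero1a, is given for scale. In hypoxic wild type 21 of the 24 were positive and the median was 0.78. By limma 5 were called higher, where 0.322% of all probe sets were. For null against wild type 2 were positive and 0 were called. At an unadjusted p under 0.05, 13 were lower, where 252 of 7453 probe sets passed in either direction. With the block 3 were lower, where 0.134% of all probe sets were called in either direction. The median was -0.57, beside 0.02 for the 38 ATF4 and CHOP targets and 0.02 over all probe sets. Ddit4, Vegfa and Hmox1 are in both lists. HIF targets were not uniform: Adm, the gene most like Atf3 in pattern, differed by -0.22 between null and wild type. Whether the members differ from either list was not tested.

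**Figure D4:**
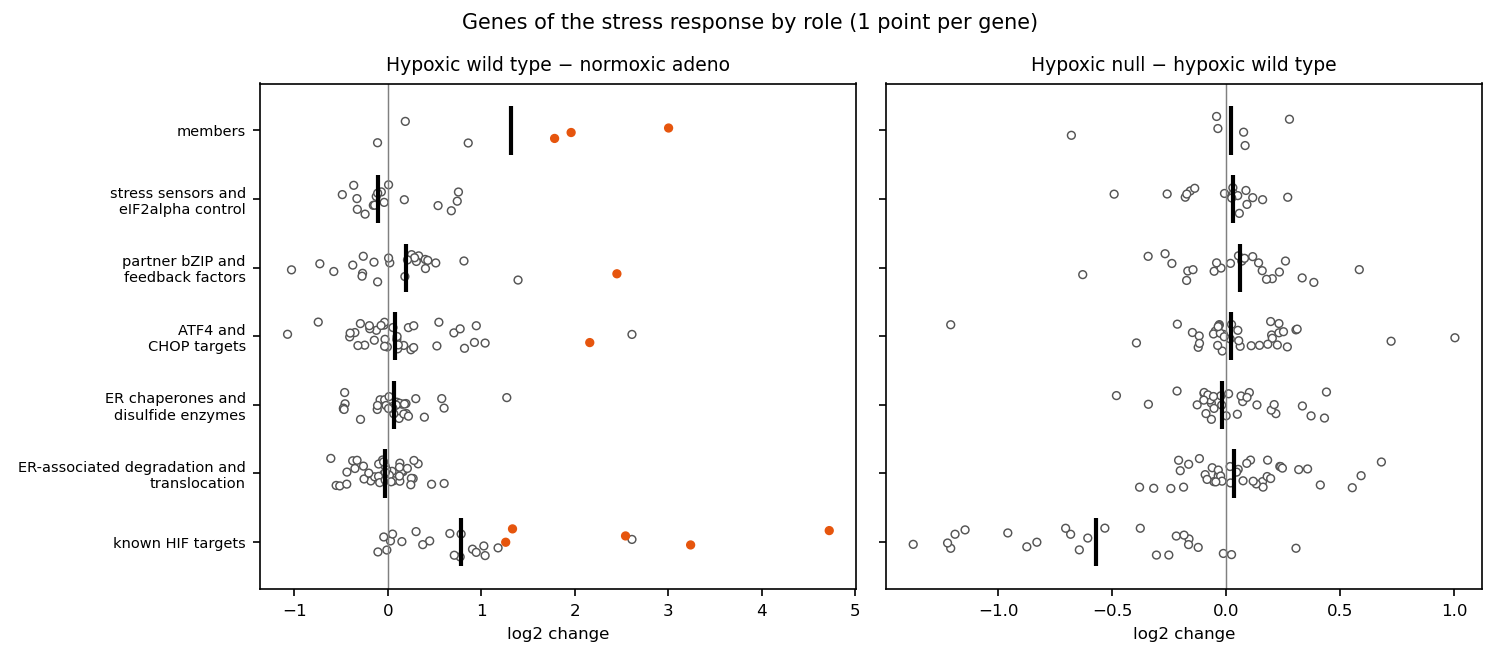
Log2 change (x axis) of each tested gene of the members and of 6 lists, 1 point per gene on its brightest probe set, for hypoxic wild type minus normoxic adeno-treated (left) and hypoxic null minus hypoxic wild type (right). Bars are list medians and filled points passed the limma threshold; the members and the HIF targets lie to the right on the left panel, and of the lists shown the HIF targets lie farthest to the left on the right panel.

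Over the 10 arrays, the genes with the pattern most like each member on the log2 scale were named by Pearson's r, as a description: the arrays fall into hypoxic and normoxic groups, and this split alone gives high values. For Atf3 these were Adm (r = 0.992), Gadd45a (0.987) and Bhlhe40 (0.981), where the 99th percentile of r over all probe sets was 0.872. For Atf4 they were Pim1 (0.975), Zfyve16 (0.960) and Atf3 itself (0.956, on 104156_r_at), and for Ddit3 Ubap1 (0.952), Golga4 (0.951) and Pawr (0.943). For Ero1a they were Fos (0.964), the glucose transporter gene Slc2a1 (0.961) and the histone demethylase gene Kdm3a (0.949). For Xbp1, Hnrnph2 led (0.949), followed by Zfx (0.924) and Cr1l (0.916), and for Hspa5, with the lowest values of the members, Spg20 (0.871), Snrpa1 (0.856) and Lonp2 (0.842). Among the members, Atf3 and Atf4 gave 0.94, Atf3 and Ddit3 0.86, and Atf3 and Hspa5 0.13 on their brightest probe sets.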

How the data were processed

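The deposited values are intensities on a linear scale, scaled by the authors: the mean of each array without its top and bottom 2 percent lies between 200.1 and 200.2. Earlier steps: not given in the sources used here. Precision is limited by the number of arrays.

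Log2 was taken after adding 4.7, which is the 10th percentile over all arrays. Control probe sets (66) and those below the 40th percentile of mean log2 value were dropped, leaving 7453. Gene names follow the platform table, updated by gene identifier to RefSeq GRCm38.p6, which also gave the promoters. The tests used limma 3.58.1 (R 4.3.3) with 4 group means, 6 residual degrees of freedom, an intensity trend and two-sided p-values under Benjamini-Hochberg adjustment. The code was tested on simulated data.

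The sample numbers in the titles were read as pairing the samples. The reason was that deviations from group means correlated above 0.1 in all 13 same-number pairs (lowest 0.106). Among hypoxic arrays same-number pairs gave 0.542 to 0.678 and different-number pairs -0.518 to -0.146. Between normoxic and hypoxic arrays number 2 was not told apart from number 3: untreated number 2 gave 0.251 with null number 3 and 0.161 with null number 2. In a group of 2 arrays the deviations mirror each other, so the pairs are not independent. A replicate block (which leaves 4 residual degrees of freedom) is quoted where it changes a call. For hypoxic against normoxic values it rests on that uncertain pairing. No normoxic array has number 3, so those arrays inform hypoxic against normoxic values in the block fit only by their null minus wild-type difference.

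The members, gene lists and tests were chosen with earlier results of these data known. Named list genes were drawn from those called with or without the block (up to 6 a list) and the 3 of smallest p in hypoxic wild type; pattern matches are the 3 of highest r. Alternatives changed the offset, filter, normalization, variance trend, control group, block and arrays used.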

Additional observations from a re-analysis of the deposited data

How the results depend on the processing

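Called member probe sets numbered 4 in hypoxic wild type and 3 in null under offsets of 2.35 and 18.8, no filter, quantile normalization, median centring, no intensity trend and without the number 3 arrays; the 60th percentile filter gave 4 and 4. In null cells the count was 5 with the replicate block, 5 with the block and without the number 3 arrays (chosen after seeing the data) and 5 against all 4 normoxic arrays. In wild type it was 5, 5 and 4. With the 4 normoxic arrays as 1 group (also chosen after seeing the data) both were 4, with Atf4 called and Ddit3 not. Leaving out 1 array gave 0 to 4 in wild type and 0 to 4 in null, and 0 in the other comparisons. The block changed the calls of Atf4 and, in null, Ero1a 97871_at, and no other member call.

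No called change turned sign. For null minus wild type, the difference of Atf3 104155_f_at without the number 3 arrays was 0.030, also with the block, and leaving out 1 array gave -0.32 to 0.22. Atf3 104156_r_at gave 0.010 in the same settings and -0.19 to 0.16. Hspa5 101955_at gave 0.017 under quantile normalization and -0.17 to 0.11 with 1 array left out, where Atf4 100599_at gave -0.0074 to 0.19 and Ero1a 97870_s_at -0.65 to 0.035. For null against adeno-treated cells, Hspa5 101955_at was -0.0057 against all 4 normoxic arrays, as control or as 1 group, and Xbp1 94821_at was -0.19 there and ran from -0.13 to 0.076 when 1 array was left out. For adeno-treated against untreated cells, Atf4 100599_at ran from -0.070 to 0.29 and Ero1a 97871_at from -0.43 to 0.046 with 1 array left out. The cause was not tested. Over all probe sets, the 24 called higher in wild type became 111 with the block, 72 with the block and without the number 3 arrays, and 3 without normoxic adeno-treated number 2.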
